A study of Mus musculus with 6 samples.

Results

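The genes described here encode the subunits of the 5 complexes of oxidative phosphorylation that are made from nuclear DNA. They were found by a rule on gene names, as all probes of the array whose name begins with Ndufa, Ndufb, Ndufc, Ndufs or Ndufv and a digit, Sdha to Sdhd, Uqcr, Cox4 to Cox8 or Atp5, without pseudogenes. The rule uses no measured value, although the family was picked for description with earlier results of these data known. This gave 128 probes of 83 genes among the 56605 probes and 37074 gene names on the array. Of these, 124 probes of 82 genes could be tested, because at least 3 of the 6 arrays showed them well above background, and 120 were so on all 6. Cox8c, a testis form of a complex IV subunit, did not reach that level on a single array. By present knowledge the tested genes comprise 35 of complex I, 4 of complex II, 8 of complex III, 16 of complex IV (with Ndufa4, which was long listed under complex I) and 15 of complex V. The other 4 match by name but are not subunits. They are Ndufa4l2, a paralogue of Ndufa4, Cox7a2l, which joins complexes into supercomplexes, and Atp5s and Atp5sl, which by present knowledge are not parts of the ATP synthase. The name rule misses some true subunits, such as Ndufab1 and Cyc1, which are given near the end.

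The cultures came from the cerebral cortex of C57/B6 mouse embryos at embryonic day 16 and grew in Neurobasal with the B27 plus supplement. The 3 control cultures carry no further description, and the 3 irradiated ones were exposed daily, for 3 hours at 3.1 THz, between days 5 and 9 in vitro. All 6 were collected at day 12 in vitro, that is after a gap of several days without irradiation, and their RNA was labelled with Cy3 and put on 1 single-colour Agilent array each. Samples carry the numbers 1 to 3 within a group, and nothing states that they were separate dissections, so p-values reflect only the spread among these samples, part of which may be technical. The series asks whether such exposure changes neurons and oligodendrocytes in culture.

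Oxidative phosphorylation moves electrons from NADH (complex I) and succinate (complex II) through ubiquinone, complex III and cytochrome c to oxygen at complex IV, and complex V uses the resulting proton gradient to make ATP. Each complex except complex II also holds subunits made from mitochondrial DNA, so they are assembled from the products of both genomes. Neurons draw most of their ATP from this system, largely to restore ion gradients after synaptic activity, and several complex IV subunits exist in a form found in most tissues and a form typical of muscle, lung or testis.

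Levels are given as log2 of the processed signal minus the 75th percentile of the same array, unless the quantile scale is named, and differences are irradiated minus control. The arrays differed in overall brightness before scaling. Their 75th percentile signals ranged from 476 to 1048 intensity units in controls and from 921 to 1291 in irradiated samples, and the share of spots well above background was lowest on control 1 (64.9%) and between 69.9% and 74.7% on the others. Saturation was seen on 0 spots. On control 1 and irradiated 2 alone did the spike-in slope lie in the range the scanner software asks for. That software gave a multiplicative detrending fit of 0 for control 1 and of 0.013 to 0.038 for the others. Control 1 also had the most spots marked as outliers, 213 beside 132 to 194. On the first principal component of all probes tested, with 55.2% of the variance, control 1 lay at -148 and the others between 12 and 62. Over all 40552 probes tested, limma with Benjamini-Hochberg adjustment called 0 probes at an adjusted p under 0.05, and 3657 had an unadjusted p under 0.05.

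No gene of oxidative phosphorylation passed the test in any of the complexes, although most had lower values in irradiated cultures on the 75th percentile scale. Of the 124 member probes 0 had an adjusted p under 0.05, where 0.0% of all probes did, and the smallest adjusted p among them was 0.520 (limma). Taking each gene by its brightest probe, 79 of the 82 genes had a difference below 0, beside 65.8% of all genes, and the median difference was -0.41, beside -0.13 over all genes. All 3 irradiated samples lay below all 3 controls for 29 of 82 genes, where 12.1% of all genes did, and above all controls for 0 of 82, where 3.85% did. At an unadjusted p under 0.05 there were 4 lower genes, a share of 4.88% beside 6.44% of all genes, and 0 higher ones beside 2.39%. Under quantile normalisation, which gives every array the same distribution of signals, 0 of 82 genes had an adjusted p under 0.05, beside 0.00765% of all genes. At an unadjusted p under 0.05 there was then 1 lower gene, beside 6.34%, and 0 higher ones, beside 2.54%. On this scale 47 of 82 genes were below 0 beside 56.7% of all genes, and the median difference was -0.03. On that scale the irradiated samples lay below all controls for 4 genes, beside 9.77% of all genes, and above all controls for 1, beside 4.5%.

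**Figure D1:**
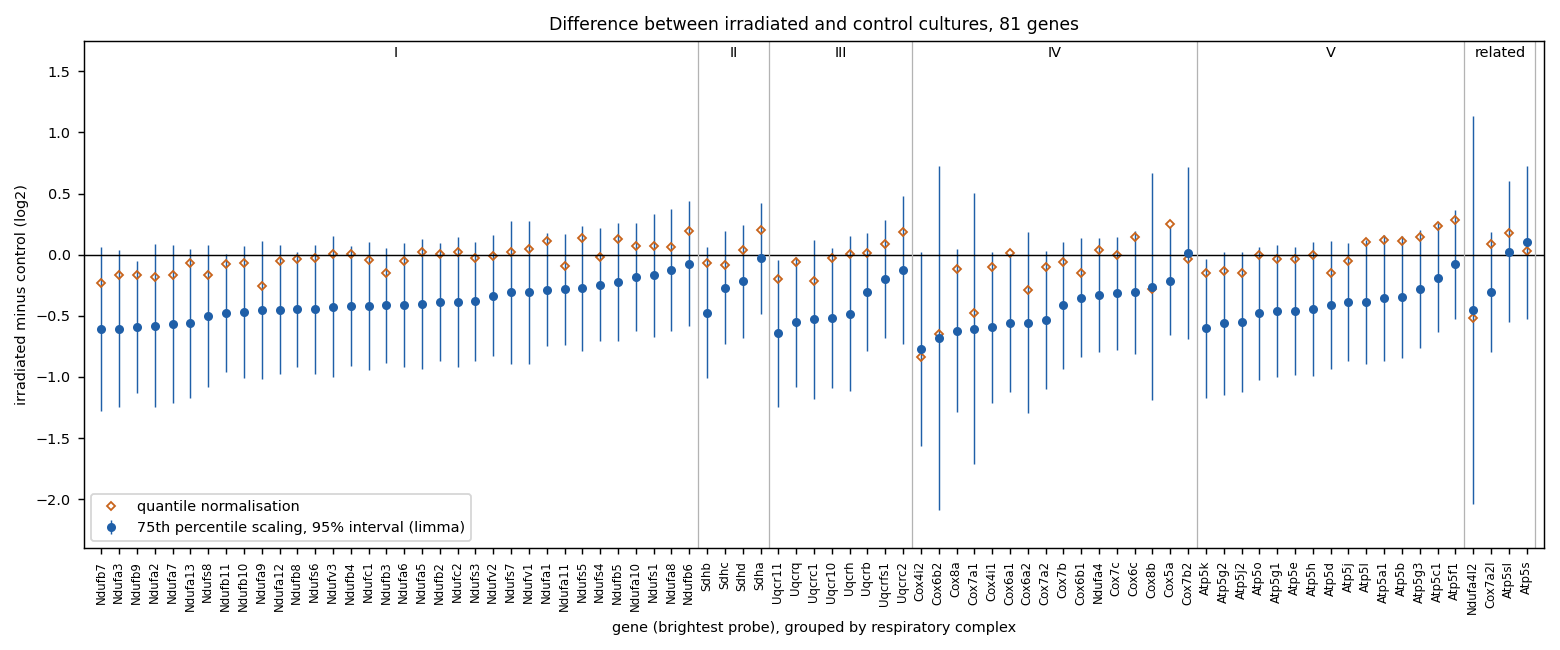
Difference between irradiated and control cultures (log2) for 81 of the 82 genes tested, each by its brightest probe, ordered by complex I to V and the 4 related genes. Filled points with bars are values on the 75th percentile scale with 95% intervals from limma, and open diamonds are the same probes after quantile normalisation: the filled points lie below 0 for 78 genes, the diamonds for 47.

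The member genes varied together from array to array. The median deviation of the 82 genes from their own mean over 6 arrays was 0.41 on control 1, 0.23 on control 2 and -0.00 on control 3, and -0.27, -0.32 and -0.02 on irradiated 1, 2 and 3. Control 1 and 2 were thus high, irradiated 1 and 2 low, and the samples numbered 3 of both groups almost level. Control 1 gave the highest value of 53 genes, while irradiated 2 gave the lowest of 45 and irradiated 1 of 27. The order of the arrays in this deviation was the reverse of their order in raw brightness, as the 75th percentile signal was 476, 687 and 1048 on controls 1 to 3 and 1225, 1291 and 921 on irradiated 1 to 3, with the exception that control 3 and irradiated 3 were almost equal in deviation. After quantile normalisation the deviations shrank to between -0.06 on irradiated 2 and 0.05 on control 1. Array brightness moved with this result, and its part in it was not tested.

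**Figure D2:**
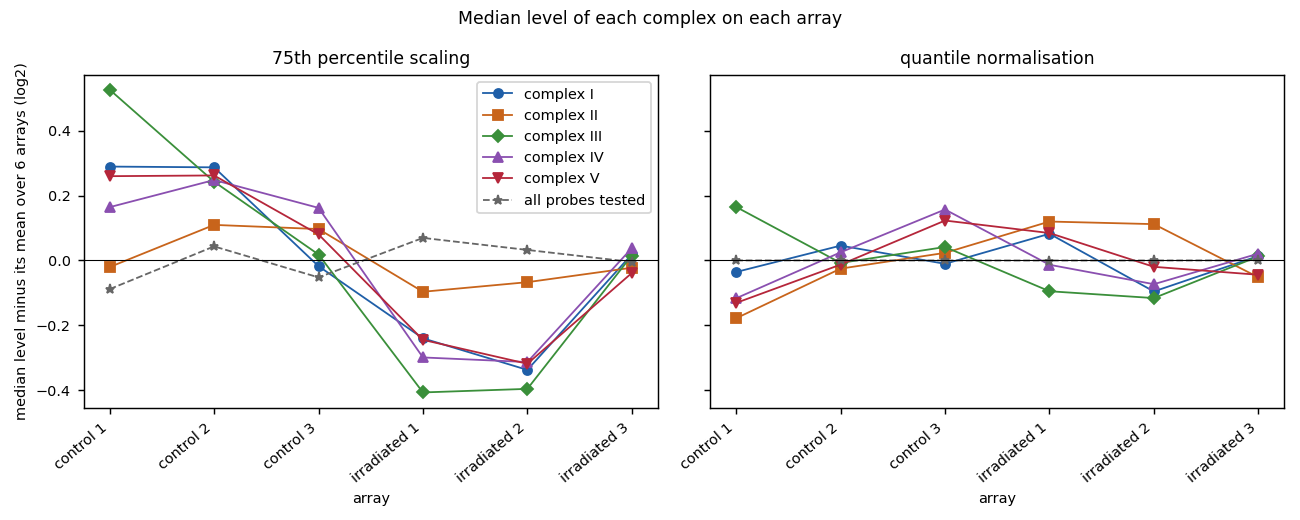
Median level of the genes of each complex on each array, minus its mean over the 6 arrays (log2), on the 75th percentile scale (left) and after quantile normalisation (right); the dashed line is the median of all probes tested. On the left complexes I, III, IV and V run from above 0 on controls 1 and 2 to below 0 on irradiated 1 and 2, and on the right every complex stays within 0.18 of 0.

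Most of these genes have very bright probes, and bright probes in general showed the same shift. The brightest probes of 74 of the 82 genes lay in the brightest 10 percent of all probes tested, with a median percentile of 98.4, which describes the probe and its signal and not the amount of transcript. In that class, 88.1% of all 4056 probes had a difference below 0, with a median of -0.24. Among the 812 probes in the top 2 percent, which included those of 48 member genes, the median over all probes was -0.42 and 98.6% were below 0, while the 48 member genes had a median of -0.45 and were all below 0. In the step from the 96th to the 98th percentile the medians were -0.27 over 811 probes and -0.32 over 17 member genes. The median of the member genes minus that of all probes of like brightness was -0.02 in the top step and -0.04 in the next. After quantile normalisation the top 2 percent had a median of 0.00 over all probes and -0.03 over the member genes. As that method gives every array the same distribution, a median near 0 over all bright probes comes largely from the method.

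**Figure D3:**
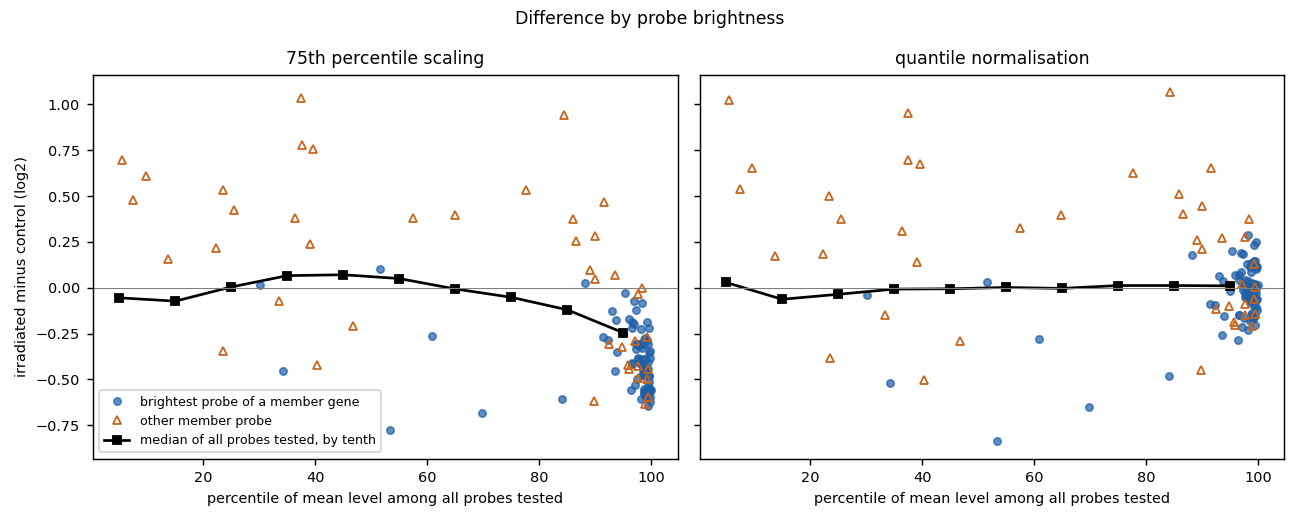
Difference between irradiated and control cultures (log2) against the percentile of a probe's mean level among all 40552 probes tested, on the 75th percentile scale (left) and after quantile normalisation (right). Circles are the brightest probe of each member gene and triangles the other member probes. Squares are the medians of all probes in 10 classes of equal size. On the left the squares decline to -0.24 in the brightest class, where most circles lie. On the right they stay near 0, which comes largely from the method.

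Complex I, the NADH dehydrogenase through which most electrons enter the chain, had 35 genes tested. All 35 were below 0 with a median of -0.41 on the 75th percentile scale, and 20 of 35 with a median of -0.03 on the quantile scale. Ndufb9, an accessory subunit of the membrane arm, had the smallest p of the complex. Its levels were 7.14, 7.07 and 6.71 on controls 1 to 3 and 6.24, 6.24 and 6.65 on irradiated 1 to 3. Every irradiated sample lay below every control, but irradiated 3 and control 3 were only a little apart. The means were 6.97 ± 0.23 and 6.38 ± 0.24 (SD, n = 3 each), and the difference of -0.59 had an SE of 0.23 and an adjusted p of 0.520 (limma), and it was -0.17 on the quantile scale. The accessory subunits Ndufb11 and Ndufb8 followed, with differences of -0.48 and -0.45. The highest difference of the complex was that of Ndufb6, another membrane arm subunit, at -0.07 and 0.19 on the quantile scale. Among the subunits that carry out catalysis, the NADH-binding Ndufv1 differed by -0.31, Ndufv2 by -0.33, and Ndufs1, Ndufs7 and Ndufs8, which hold iron-sulphur clusters, by -0.17, -0.31 and -0.50. On the quantile scale Ndufv1, Ndufs1 and Ndufs7 turned to 0.04, 0.07 and 0.02.

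Complex II, succinate dehydrogenase, is the one complex made wholly from nuclear genes and also a step of the citric acid cycle. Its 4 genes were below 0, with a median of -0.24, and 2 of 4 were on the quantile scale. Sdhb, the iron-sulphur subunit, measured 6.79, 6.49 and 6.23 in controls and 5.96, 5.93 and 6.20 in irradiated samples. The groups did not overlap, with irradiated 3 just under control 3. The difference was -0.47 (SE 0.23, adjusted p = 0.520, limma) and -0.07 on the quantile scale. The membrane anchors Sdhc and Sdhd differed by -0.27 and -0.22, also without overlap. The flavoprotein Sdha, which oxidises succinate, was the member with the least difference of the 4, with 4.60, 4.81 and 4.82 in controls and 4.79, 4.74 and 4.61 in irradiated samples, which overlapped. Its difference was -0.03 and turned to 0.20 on the quantile scale.

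Complex III, which passes electrons from ubiquinol to cytochrome c, had a median of -0.50 over 8 genes, all below 0, and of -0.01 on the quantile scale with 4 below 0. Uqcr11, a small subunit of the membrane part, had the lowest value of the complex. It measured 7.57, 7.52 and 7.01 in controls and 6.55, 6.57 and 7.06 in irradiated samples. Irradiated 3 lay above control 3, so the groups overlapped, although irradiated 1 and 2 were far below all controls. The difference of -0.64 had an SE of 0.26 and an adjusted p of 0.520 (limma) and was -0.20 on the quantile scale. Uqcrq, a small subunit named for ubiquinone binding, measured 8.05, 7.96 and 7.54 against 7.21, 7.21 and 7.48, without overlap, and differed by -0.55. The small subunit Uqcr10 differed by -0.52. The core proteins Uqcrc1 and Uqcrc2 differed by -0.53 and -0.12, and the Rieske iron-sulphur protein Uqcrfs1 by -0.20. Uqcrc2 was the highest of the complex and, with Uqcrfs1, turned positive on the quantile scale (0.19 and 0.08).

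Complex V, the ATP synthase, had 15 genes, all below 0 with a median of -0.41, and 8 below 0 with a median of -0.00 on the quantile scale. Atp5k, subunit e of the membrane part that helps pair ATP synthases into dimers, measured 7.69, 7.36 and 7.08 in controls and 6.68, 6.61 and 7.03 in irradiated samples. All irradiated samples lay below the controls, irradiated 3 by the least. The difference was -0.60 (SE 0.24, adjusted p = 0.520, limma) and -0.15 on the quantile scale. Atp5g2, a gene of the rotating c subunit, and Atp5j2, subunit f, followed with -0.56 and -0.55. In the catalytic head, Atp5a1 (alpha), Atp5b (beta, which holds the active sites) and Atp5c1 (gamma, the rotating shaft) differed by -0.35, -0.35 and -0.19, and these turned to 0.12, 0.11 and 0.23 on the quantile scale. The head subunits Atp5d and Atp5e differed by -0.41 and -0.46. Atp5f1, the b subunit of the outer stalk that holds the head still (Atp5pb in present naming), had the highest difference, -0.08, and 0.29 on the quantile scale.

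The promoters of several of these genes share sites that are known for nuclear respiratory factor 1 (NRF1) and for factors of the ETS family such as GABP. RefSeq promoters of build GRCm38.p6, from 250 bases before to 50 after the gene start, were matched by symbol for 68 of the 83 genes, and both strands were searched. The NRF1 motif GCGCATGCG was in 8 of 68 (11.8%), beside 1.95% of 27025 genes. The ETS motif CCGGAAG was in 16 of 68 (23.5%), beside 9.93%. The YY1 motif AAGATGGCG, whose first letters can overlap the last of the ETS motif, was in 8 (11.8%), beside 1.64%. A match of letters is a description and not evidence that a factor binds there. Atp5k, Atp5l, Cox6a1 and Uqcr11 had both the NRF1 and the ETS motif. The 250 bases before the start are printed for Cox6a1, Atp5k and Uqcr11. Atp5k and Uqcr11 are among the 4 genes with an unadjusted p under 0.05. Cox6a1 holds both motifs before its start, as does Atp5l, which is not printed. Capitals mark the NRF1 and ETS motifs on either strand where the whole motif lies within the 250 bases. The ETS motif of Atp5k and the NRF1 motif of Uqcr11 do not lie wholly within them and are not marked. All 3 are on the minus strand, at chr5:115348959-115349208, chr5:108434400-108434649 and chr10:80406822-80407071.
Cox6a1: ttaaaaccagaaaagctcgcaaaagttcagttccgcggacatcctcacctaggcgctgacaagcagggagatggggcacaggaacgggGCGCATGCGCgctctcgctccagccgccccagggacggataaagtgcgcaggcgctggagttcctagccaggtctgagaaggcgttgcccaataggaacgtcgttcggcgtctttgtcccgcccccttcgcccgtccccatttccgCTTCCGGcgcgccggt
Atp5k: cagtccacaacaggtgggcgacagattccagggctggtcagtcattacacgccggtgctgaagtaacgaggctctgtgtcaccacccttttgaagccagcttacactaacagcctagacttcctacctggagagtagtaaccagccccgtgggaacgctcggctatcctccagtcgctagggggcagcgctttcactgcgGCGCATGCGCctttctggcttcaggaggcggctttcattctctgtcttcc
Uqcr11: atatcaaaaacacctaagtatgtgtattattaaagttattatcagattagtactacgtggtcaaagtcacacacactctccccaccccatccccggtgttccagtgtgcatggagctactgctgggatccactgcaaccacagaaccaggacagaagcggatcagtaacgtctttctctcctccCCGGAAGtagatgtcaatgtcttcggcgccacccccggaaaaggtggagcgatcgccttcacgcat
The 20 member genes with an NRF1 or ETS motif (29.4% of those matched, beside 11.5% of all genes) had a median difference of -0.47, and all were below 0. The 48 without either had a median of -0.40, with 45 below 0. Those above 0 were Atp5s (0.10) and Atp5sl (0.03), which are not subunits, and Cox7b2 (0.01), whose probe lay at percentile 30.1 of brightness. On the quantile scale the medians were -0.06 and -0.01.

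Complex IV, cytochrome c oxidase, had a median of -0.47 over 16 genes with 15 below 0, and of -0.10 on the quantile scale with 12 below 0. The form of subunit 4 found in most tissues, Cox4i1, measured 8.18, 7.87 and 7.42 in controls and 7.16, 7.05 and 7.47 in irradiated samples. Irradiated 3 lay above control 3, so the groups overlapped. The difference was -0.60 (SE 0.26, adjusted p = 0.520, limma) and -0.10 on the quantile scale. Cox4i2, the form typical of lung and of low oxygen, measured -0.24, -0.97 and -1.48 in controls and -1.84, -1.79 and -1.38 in irradiated samples. It too overlapped at the samples numbered 3. Its difference of -0.77 (SE 0.34, adjusted p = 0.520, limma) was the lowest of all 82 genes, and it was the one gene of the 82 with an unadjusted p under 0.05 on the quantile scale, at -0.84 with an adjusted p of 0.531. Cox6a1, whose promoter is printed above, measured 9.30, 9.12 and 8.71 against 8.38, 8.35 and 8.72, with irradiated 3 level with control 3. It differed by -0.56, and by 0.02 on the quantile scale. At percentile 99.99 it held one of the top ranks, to which quantile normalisation gives the same values on every array. Cox5a, a nuclear subunit next to the catalytic core, differed by -0.22 and turned to 0.25 on the quantile scale.

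The ratio of both forms of a subunit within an array does not depend on a scaling that adds 1 constant to an array. Of 10 such pairs tested with the exact permutation test (two-sided, smallest possible p of 0.1 with 3 against 3), none had an adjusted p under 0.83, or under 0.78 on the quantile scale. The log2 ratio of Cox4i1 over Cox4i2 was 8.42, 8.83 and 8.89 in controls and 8.99, 8.83 and 8.85 in irradiated samples. Control 1 was the lowest and the rest lay close together. The ratio was higher by 0.18 in irradiated samples (SE 0.16, exact p = 0.50, adjusted p = 0.83), and by 0.73 on the quantile scale (SE 0.33, exact p = 0.20, adjusted p = 0.78). Cox6a1 over its muscle form Cox6a2 was 3.40, 3.95 and 3.47 against 3.48, 3.94 and 3.41. The samples with the same number gave almost the same ratio in both groups. The difference was -0.00 (SE 0.24, exact p = 1) and 0.30 on the quantile scale, where Cox6a1 differed by 0.02 and Cox6a2 by -0.28. The ratios are contrasts of different probes, so their size does not give the ratio of the transcripts. A constant added to an array leaves them unchanged, but a dependence on probe brightness does not. Cox4i1 lay at percentile 99.7 of brightness and Cox4i2 at 53.3. In the brightness classes of these probes, all probes had median differences of -0.24 and 0.05. The part of probe brightness in the 10 ratios was not tested.

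None of the remaining pairs separated the groups. Cox7b over the testis form Cox7b2 had a difference of -0.43 (SE 0.30, exact p = 0.20), with control 1 alone far above the rest at 10.11, and the difference was -0.02 on the quantile scale (exact p = 1). Cox8a over the muscle form Cox8b had a difference of -0.36 (SE 0.29, exact p = 0.30), which turned to 0.16 after quantile normalisation. Cox6b1 over the testis form Cox6b2 had a difference of 0.33 with an SE of 0.80, and Cox7a2 over the muscle form Cox7a1 of 0.07 with an SE of 0.46. On the quantile scale these were 0.50 and 0.38. Within complex V, 3 genes encode the same mature c subunit with different import sequences, and Atp5g1 and Atp5g3 over Atp5g2 had differences of 0.10 and 0.28 (SE 0.11 and 0.27), and of 0.10 and 0.28 on the quantile scale. Ndufa4 over Ndufa4l2, the latter known to be induced in low oxygen, had a difference of 0.12 with an SE of 0.92, and of 0.56 on the quantile scale. Cox7a2 over Cox7a2l had a difference of -0.23 (SE 0.18), and of -0.18 on the quantile scale.

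Some tissue forms varied with the sample number in both groups. Cox6b2 measured 2.29, 0.39 and -0.10 in controls and 0.65, -0.29 and 0.16 in irradiated samples. Cox7a1 measured 3.69, 2.38 and 2.04 against 2.63, 1.53 and 2.13. Ndufa4l2 measured -1.45, -3.07 and -3.84 against -2.22, -3.47 and -4.03. The sample numbered 1 was the highest of its group for each of the 3 genes. Markers of microglia, astrocytes and oligodendrocytes were also highest in the sample numbered 1 of each group, as given near the end. The part of these cell types in this was not tested.

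**Figure D4:**
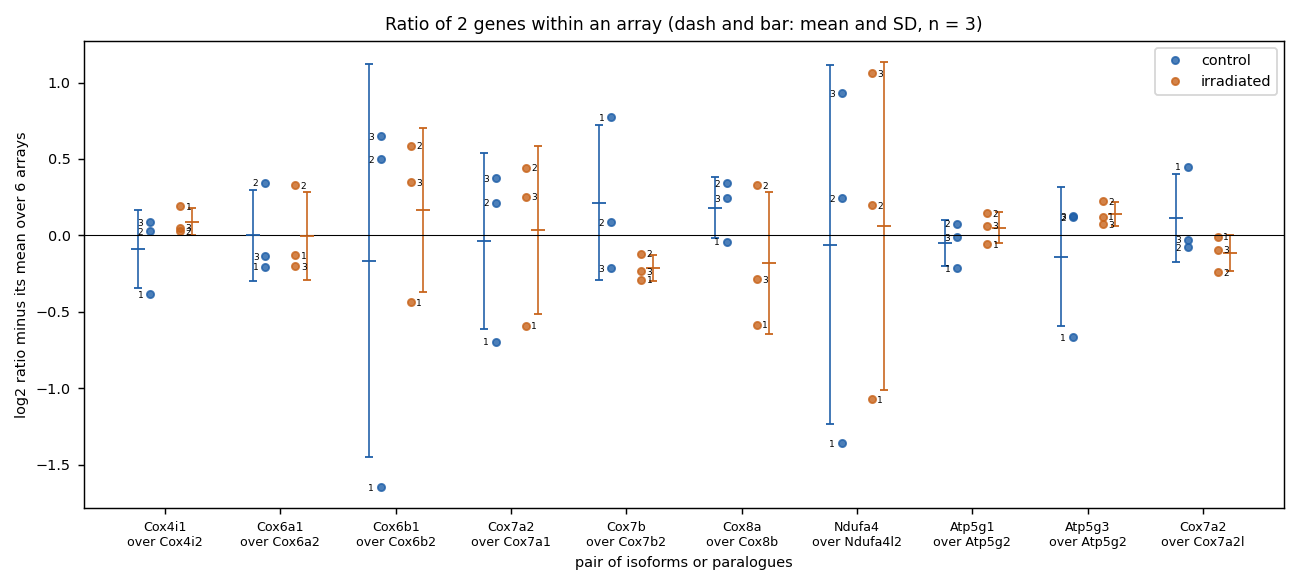
Log2 ratio of the brightest probes of both genes of a pair within an array, minus its mean over the 6 arrays, for 10 pairs of isoforms or paralogues; points are arrays with their sample number, and dashes with bars are group means with SD (n = 3). Control 1 is the outermost control for Cox6b1 over Cox6b2 and Ndufa4 over Ndufa4l2, and the groups overlap in each of the 10 pairs.

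Different probes of the same gene did not always tell the same story. Of the 32 genes with at least 2 tested probes, 20 had probes with differences of opposite sign. Among the genes whose probes lay furthest apart were Ndufs1, Ndufs3, Ndufa10 and Uqcrfs1, with ranges between 0.90 and 1.20. Of all 124 probes, 98 were below 0 beside 55.9% of all probes, and the 42 that were not the brightest of their gene had a median of 0.09 with 19 below 0. After quantile normalisation 0 of the 124 probes had an adjusted p under 0.05, beside 0.00986% of all probes, 1 was lower at an unadjusted p under 0.05, beside 5.07%, and 0 were higher, beside 4.06%. The irradiated samples then lay below all controls for 6 probes (4.84% beside 8.24%) and above them for 5 (4.03% beside 6.48%). On the 75th percentile scale, at an unadjusted p under 0.05, there were 6 lower probes (4.84% beside 4.99% of all probes) and 1 higher (0.806% beside 4.02%). The irradiated samples lay below all controls for 34 probes (27.4% beside 9.71%) and above them for 3 (2.42% beside 5.77%), which were dimmer probes for other transcripts of Ndufs1, Ndufs3 and Sdha. Atp5h, subunit d of the outer stalk, was the only gene with more than 1 probe at an unadjusted p under 0.05. Its 3 probes differed by -0.45, -0.59 and -0.64.

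Where 2 probes of the same RefSeq transcript lie apart, the one nearer to the start of the gene mostly had the higher difference. For 13 member transcripts the outermost probes had centres at least 60 bases apart on mouse build mm9. This comparison was chosen after the values of single probes had been seen. The median difference of the 13 upstream probes was 0.07 with 5 below 0, and that of the downstream probes -0.35 with 12 below 0, and on the quantile scale the medians were 0.27 and 0.04. The sequences of 4 upstream probes that cross an exon junction are printed, to show which stretch of the transcript they report, 60 bases each from the deposited array files, in lower case because no base is singled out. By mm9 coordinates they span chr4:140522514-140527081 (Sdhb, plus strand), chr10:127521478-127522156 (Atp5b, plus), chr1:94361039-94363996 (Ndufa10, minus) and chr3:32643856-32645420 (Ndufb5, plus). Each span is longer than the probe, as a probe that joins exons across an intron has to be.
Sdhb: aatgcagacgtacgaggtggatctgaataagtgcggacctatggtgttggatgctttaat
Atp5b: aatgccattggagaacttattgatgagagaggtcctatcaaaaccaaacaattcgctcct
Ndufa10: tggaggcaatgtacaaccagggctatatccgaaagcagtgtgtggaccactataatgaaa
Ndufb5: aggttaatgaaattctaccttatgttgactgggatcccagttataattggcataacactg

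The Sdhb probe printed above measured 3.70, 4.33 and 4.37 in controls and 4.25, 4.19 and 4.17 in irradiated samples. Control 1 was the lowest and all other samples lay together, whereas control 1 was the highest on the downstream Sdhb probe given earlier. The upstream probe differed by 0.07 and the downstream one by -0.47. The printed Atp5b probe measured 1.70, 2.84 and 2.94 against 2.87, 3.18 and 2.56, with control 1 again low. It differed by 0.37 (SE 0.37), another probe between them by -0.00, and the downstream probe by -0.35. The upstream probe of Ndufa10 differed by 0.28 and the downstream by -0.19. For Ndufb5 the values were 0.05 and -0.23, for Ndufv1 0.25 and -0.31, for Sdha 0.53 and -0.03, and for Atp5a1 0.47 and -0.35.

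The log2 ratio of upstream over downstream probe was higher in irradiated samples for 12 of the 13 transcripts, with a median of 0.37. Over all 5376 transcripts with such probes it was higher for 65.0% with a median of 0.15. The smallest exact permutation p was 0.10, for Atp5h, Atp5sl and Sdha, and no adjusted p over the 13 was under 0.37. The median deviation of the ratio over the member transcripts was -0.61, -0.11 and 0.10 on controls 1 to 3 and 0.15, 0.36 and 0.05 on irradiated 1 to 3. Control 1 was by far the lowest, and it also stood apart on the first principal component of all probes, as given above. Without control 1 the ratio was higher for 11 of 13 with a median of 0.19, and for 68.9% of all transcripts with a median of 0.13. A constant added to an array leaves this contrast unchanged, but a dependence on probe brightness does not. The downstream probe was the brighter one for 11 of the 13 transcripts and for 4749 of all 5376. The 6 arrays stood in the same order in this ratio as in raw brightness, from control 1 to irradiated 2. The part of probe brightness, of array brightness, of RNA quality and of the distance from the 3′ end was not tested.

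**Figure D5:**
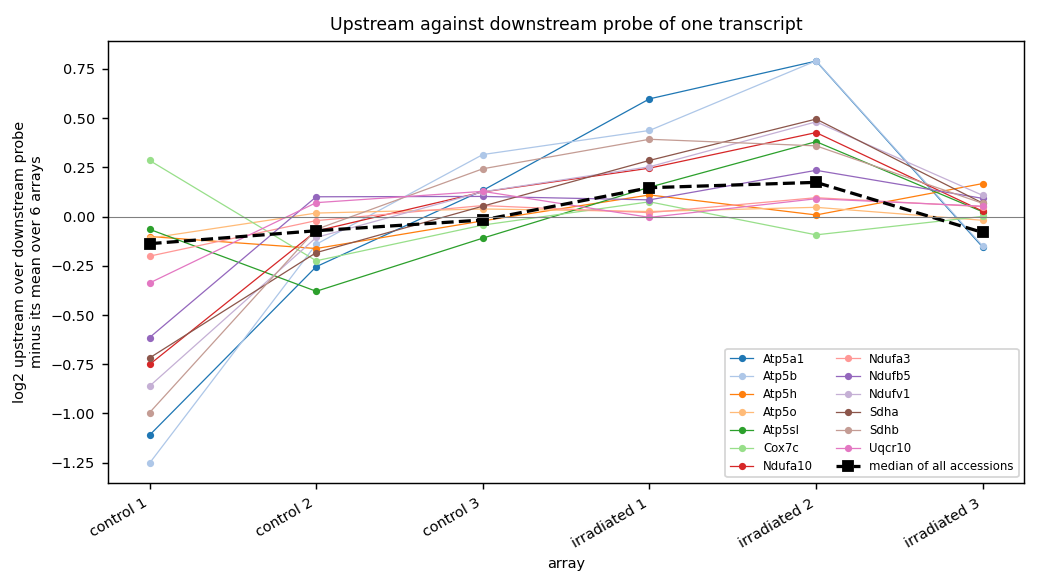
Log2 ratio of the upstream over the downstream probe of one RefSeq transcript within an array, minus its mean over the 6 arrays, for 13 member transcripts (coloured lines) and the median of all 5376 transcripts with such probes (dashed black line with squares). The widest lines, those of Atp5b and Atp5a1, run from -1.25 and -1.11 on control 1 to 0.79 on irradiated 2.

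Other genes of the pathway, from lists of known function, had medians between -0.27 and -0.11 on the 75th percentile scale, where 65.8% of all genes were below 0, and between -0.03 and 0.14 on the quantile scale. The 5 tested subunits that the name rule misses were all below 0 with a median of -0.27, and 1 of 5 was with a median of 0.13 on the quantile scale, among them cytochrome c1 (Cyc1) at -0.27 and Usmg5, a small subunit of the ATP synthase, at -0.43. All 14 carriers and related genes of the inner and outer membrane were below 0 with a median of -0.21, and 8 of 14 were with a median of -0.02 on the quantile scale, among them the ATP synthase inhibitor Atpif1 (-0.49) and the outer membrane channel Vdac1 (-0.46). Of the 30 assembly factors of complexes II to V, 24 were below 0 with a median of -0.15, and 19 with a median of -0.03 on the quantile scale, and the copper chaperone Sco2 (-0.53) and Uqcc2 (-0.53) had the smallest p. Of the 13 assembly factors of complex I, 8 were below 0 with a median of -0.11, and 7 with a median of -0.01 on the quantile scale. Timmdc1, one of them, had a difference of -0.78 at an unadjusted p of 0.024 (limma), and Acad9 one of 0.54. Timmdc1 was the one gene of these lists with an unadjusted p under 0.05. Among all genes 6.44% were lower and 2.39% higher at that level.

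Enzymes of the citric acid cycle had 11 of 17 genes below 0 with a median of -0.15, and 3 of 17 with a median of 0.14 on the quantile scale, with citrate synthase (Cs) at -0.32. Of 15 regulators of mitochondrial genes, 9 were below 0 with a median of -0.13, and 8 with a median of -0.03 on the quantile scale, and Slirp and the GABP subunit Gabpb1 differed by -0.38 and -0.37. No gene of any of these lists had an adjusted p under 0.05.

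The labels call the samples neuron cultures, and all 10 neuron markers looked for were well above background, as were the 9 astrocyte, 10 microglia and 8 oligodendrocyte markers. Of 8 markers of endothelial cells and fibroblasts 6 were tested. Cldn5, one of the endothelial markers, stayed below that level on each array, which alone does not show whether endothelial cells were present. The neuron markers had 7 of 10 genes below 0 with a median of -0.21, and 3 of 10 with a median of 0.12 on the quantile scale. They ranged from Tubb3 (-0.67) and Nefl (-0.42) to Slc17a7 (0.15). Their summed level, as log2, was 9.04 to 9.19 in controls and 8.56 to 9.11 in irradiated samples. It was lowest on irradiated 1 and 2, like the genes of oxidative phosphorylation. The same held for each of the other pathway lists above. The citric acid cycle, for example, was summed at 9.20 and 9.19 there and at 9.41 to 9.54 on the other arrays. The microglia markers had 3 of 10 below 0 with a median of 0.21, and 2 of 10 with a median of 0.29 on the quantile scale. They were summed at 4.88, 4.06 and 3.64 in controls and 5.11, 3.92 and 3.93 in irradiated samples, highest in the sample numbered 1 of each group. Itgam and Ptprc differed by 0.18 and -0.20. The astrocyte markers had 7 of 9 below 0 with a median of -0.13, and 3 with a median of 0.01 on the quantile scale, with Aldoc at -0.41 and S100b at -0.24. They were summed at 8.90, 7.95 and 7.41 in controls and 8.42, 7.63 and 7.37 in irradiated samples, again highest in the samples numbered 1. The oligodendrocyte markers had 5 of 8 below 0 with a median of -0.04, and 3 with a median of 0.13 on the quantile scale, with Mog at -0.39 and Sox10 at -0.24. They were summed at 7.23, 5.42 and 6.62 in controls and 7.06, 5.53 and 6.39 in irradiated samples, also highest in the samples numbered 1. The endothelial and fibroblast markers had 6 of 6 below 0 on both scales, with medians of -0.34 and -0.33, and with Col1a1 at -0.49 and Col1a2 at -0.51. They were summed at 3.68, 3.12 and 2.37 in controls and 2.77, 2.79 and 2.35 in irradiated samples. The part of cell composition in the values of the oxidative phosphorylation genes was not tested, and in these bulk samples fewer cells of a type and less RNA per cell cannot be told apart.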

How the data were processed

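RNA of 3 control and 3 irradiated cultures was measured on single-colour arrays, all on 1 slide and in 1 scan. The deposited scanner files hold linear spot intensity values from Agilent Feature Extraction (version 10.7.1.1, per the file headers), with the background subtracted and no normalisation between arrays. A second table, of log2 values deposited by the authors and quantile normalised as its values show, with its tool not given in the sources used here, served as an alternative.

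The processed signal was taken to log2 without a pseudocount, spots marked as outliers were left out, spots of a probe were averaged and the array's 75th percentile over probes other than controls was subtracted. Of the 56605 probes 10 had no unmarked spot on some array and were left out. Probes well above background on at least 3 of 6 arrays were fitted together with lmFit and eBayes of limma 3.58.1 under R 4.3.3 (Benjamini-Hochberg adjustment over 40552 probes, call at 0.05), and the fit was tested on simulated data. A gene stands for its probe with the highest mean. Ratios of genes and of probes within an array were compared with exact permutation tests. The deposited arrays' number limits the precision.

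The members, gene lists and tests were chosen with earlier results of these data known. Named are, in each complex, the 3 genes with the smallest unadjusted p and the one with the highest difference, all genes of isoform pairs, catalytic subunits, the 5 genes whose probes differ most, and in each other list the 2 genes with the smallest unadjusted p. Some genes that this rule selects are left out of the text. Other genes named as examples were picked with their values in view. Alternatives were other scalings and background corrections, the deposited table, filters, the replicate number as a block and leaving out arrays. Probe positions are on build mm9, per the file headers, and promoter sequences are RefSeq's on GRCm38.p6.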

Additional observations from a re-analysis of the deposited data

How the results depend on the processing

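No member probe passed the adjusted threshold under any of the alternatives run, with 1 array left out in turn included. The count of member probes at an unadjusted p under 0.05, 7 in the report, was 1 in the deposited table and under quantile normalisation, 3 with normexp background followed by quantile normalisation and 3 without the filter on dim probes, 13 with the median of an array in place of its 75th percentile, 15 with normexp alone and 0 without both samples numbered 1. It ranged from 0 to 31 with 1 array left out: 31 without control 3, 17 without irradiated 3, 5 without control 2, 1 without control 1 and 0 without irradiated 1 or 2. Member genes below 0, 79 in the report, numbered 46 in the deposited table, 47 under each quantile normalisation and 77 to 80 with 1 array left out.

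In the order deposited table, quantile normalisation, normexp and quantile, the median difference of the member genes was -0.027, -0.028 and -0.010. In the same order it was -0.025, -0.025 and -0.0088 for complex I, -0.012, -0.013 and -0.011 for complex II, -0.0096, -0.011 and -0.014 for complex III, -0.099, -0.10 and -0.10 for complex IV and 0.0011, -0.0014 and 0.0034 for complex V. Complex II was also at -0.30 with median scaling, -0.17 with normexp and -0.15 without both samples numbered 1, and complex V at -0.19 with the mean of a gene's probes and -0.28 without both samples numbered 1. With 1 array left out in turn the median of the members ranged from -0.51 to -0.32, that of complex I from -0.50 to -0.32, of II from -0.30 to -0.19, of III from -0.66 to -0.31, of IV from -0.60 to -0.33 and of V from -0.56 to -0.35.

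Of the ratios between isoforms, and again in that order, Cox6a1 over Cox6a2 turned to 0.34, 0.30 and 0.33 and Cox8a over Cox8b to 0.16, 0.16 and 0.11. Without both samples numbered 1, Cox4i1 over Cox4i2 turned to -0.019 and Cox6b1 over Cox6b2 to -0.11. With 1 array left out in turn, ratios ranged from -0.17 to 0.17 for Cox6a1 over Cox6a2, -0.41 to 0.74 for Cox6b1 over Cox6b2, -0.26 to 0.38 for Cox7a2 over Cox7a1 and -0.53 to 0.69 for Ndufa4 over Ndufa4l2, and the other 6 pairs kept their sign. The count of transcripts with a higher upstream probe, 12 of 13, then ranged from 11 to 13.

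None of the named genes was called in any setting, and the same 19 of 48 changed the sign of their difference under all 3 quantile settings. The values were Atp5a1 0.12, Atp5b 0.11, Atp5c1 0.23, Atp5f1 0.29, Atp5g3 0.14, Cox5a 0.25, Cox6a1 0.016, Cox7a2l 0.088, Cox7b2 -0.037, Ndufa10 0.071, Ndufa4 0.038, Ndufb6 0.19, Ndufs1 0.071, Ndufs7 0.024, Ndufv1 0.043, Sdha 0.20, Sdhd 0.041, Uqcrc2 0.19 and Uqcrfs1 0.084 under quantile normalisation. They were Atp5a1 0.12, Atp5b 0.12, Atp5c1 0.23, Atp5f1 0.29, Atp5g3 0.14, Cox5a 0.25, Cox6a1 0.053, Cox7a2l 0.088, Cox7b2 -0.037, Ndufa10 0.072, Ndufa4 0.039, Ndufb6 0.19, Ndufs1 0.072, Ndufs7 0.025, Ndufv1 0.043, Sdha 0.20, Sdhd 0.042, Uqcrc2 0.19 and Uqcrfs1 0.084 in the deposited table. With normexp and quantile they were Atp5a1 0.14, Atp5b 0.11, Atp5c1 0.26, Atp5f1 0.29, Atp5g3 0.14, Cox5a 0.24, Cox6a1 0.053, Cox7a2l 0.087, Cox7b2 -0.0087, Ndufa10 0.077, Ndufa4 0.029, Ndufb6 0.21, Ndufs1 0.080, Ndufs7 0.026, Ndufv1 0.043, Sdha 0.20, Sdhd 0.051, Uqcrc2 0.17 and Uqcrfs1 0.089. The mean over a gene's probes gave Atp5a1 0.056, Atp5b 0.0079, Atp5g3 0.048, Ndufa10 0.29, Ndufs1 0.43, Ndufs3 0.12, Ndufv2 0.10, Sdha 0.30 and Uqcrfs1 0.25. Normexp alone gave Cox7b2 -0.33, Ndufb6 0.020 and Sdha 0.048, median scaling Cox7b2 -0.045, and the fits without both samples numbered 1 Cox7b2 -0.19, Ndufs1 0.0077 and Uqcrc2 0.085. With 1 array left out in turn the signs changed for Cox6b2 (-1.16 to 0.031), Cox7b2 (-0.25 to 0.19), Cox8b (-0.52 to 0.079), Ndufa4l2 (-0.98 to 0.22), Ndufb6 (-0.21 to 0.044), Sdha (-0.10 to 0.021) and Uqcrc2 (-0.35 to 0.049). The cause of these changes was not tested.

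The labels do not say whether samples with the same number belong together. The correlations of same-numbered deviations from the group means were 0.46, 0.33 and 0.086 for the numbers 1 to 3. Controls 1 and 2 correlated best with the irradiated sample of their own number, and control 3 with irradiated 2. These values do not settle whether the samples were paired. With the number as a replicate block, 4 member probes had an unadjusted p under 0.05 and 0 passed the adjusted threshold, and with the block and quantile normalisation 2 had such an unadjusted p and 47 genes were below 0, with the same differences as without the block. With 3 arrays a group, the 95% intervals of all but 4 of the 82 genes included 0 on the 75th percentile scale.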
